A study of Mus musculus with 8 samples.

Results

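Chemokine ligands and chemokine receptors were examined in the hypothalamus of mice with peroxisome-deficient neural cells. Members were all genes whose symbol is Ccl, Cxcl, Ccr or Cxcr followed by a number and at most 1 letter, and that have a probe set annotated to that gene alone. This gave 45 genes of the 18194 genes on the array, 31 of them ligands (18 of the CC and 13 of the CXC type) and 14 receptors (9 CC and 5 CXC). The members were read by 69 of the 34958 probe sets annotated to 1 gene.

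Total RNA came from the hypothalamus of 10-week-old mice kept under normal conditions without treatment, and each RNA sample was hybridised to 1 Affymetrix whole-genome mouse array. The first group held 4 wild type mice (replicates 1 to 4). The second held 4 Nestin-Pex5-/- mice (replicates 7 to 10), in which a Cre recombinase driven by nestin regulatory sequences deletes a loxP-flanked Pex5 allele. Pex5 is the receptor that imports matrix proteins into peroxisomes, and the deletion reaches the neurons, astrocytes and oligodendrocytes that arise from nestin-expressing progenitors. Microglia, the resident macrophages of the brain, do not belong to that lineage. Both genotypes were kept on a Swiss Webster background. The values are log2 levels made by the authors with RMA, which corrects for background, normalises the arrays to each other and joins the probes that target a transcript into a probe set. Where a gene had several probe sets, the brightest on average stood for it.

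Chemokines are small secreted proteins that guide the migration of leukocytes through G protein-coupled receptors. CC and CXC chemokines differ in the spacing of their first conserved cysteines, and in general CC ligands bind CCR receptors and CXC ligands bind CXCR receptors. Most receptors take several ligands and many ligands bind several receptors. In the brain, microglia, astrocytes and endothelial cells make inflammatory chemokines when activated, whereas Cxcl12 and the membrane-bound chemokine Cx3cl1 are made constitutively.

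Over all genes, the genotypes were compared with limma, and a gene was called changed at an adjusted p under 0.05 (Benjamini-Hochberg over all 18194 genes). The genotypes separated on principal component 1, which held 49.3% of the variance. Wild type 4 stood apart from the other arrays on the second component (18.7%), and Nestin-Pex5-/- 7 and 8 lay apart from 9 and 10 on the third (12.8%). The labelled tissue was checked with 10 hypothalamic genes (among them Pomc, Npy, Hcrt, Avp, Oxt and Pmch), whose mean log2 level lay between 9.08 and 9.66 on every array. Of these 10, limma called 0 higher and 1 lower in Nestin-Pex5-/- mice, Nkx2-1 (log2 fold change -0.32, adjusted p = 0.037), while 0.791% of all genes were lower. The log2 fold change was negative for 9 of the 10 (median -0.15). Pex5 itself read 8.62, 8.68, 8.63 and 8.70 in wild type and 8.76, 8.68, 8.58 and 8.66 in Nestin-Pex5-/- mice (log2 fold change 0.01, adjusted p = 0.946). Whether its probes fall inside the floxed segment is not known, so this reading checks nothing about the labels.

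Of the 45 members, 12 were higher in Nestin-Pex5-/- mice and 0 were lower at the threshold in limma, while 3.98% of all genes were called higher and 0.791% lower. The called members make up 26.7% of the family. Without adjustment, 16 members were higher and 4 lower at p under 0.05, against 8.85% and 8.01% of all genes. Ligands accounted for 11 of the 12 calls: 8 of 18 CC ligands and 3 of 13 CXC ligands. The only receptor called was Ccr6, 1 of 14 (7.14%, beside 3.98% of all genes). The median log2 fold change was 0.07 over the ligands and -0.003 over the receptors, against -0.03 over all genes. Of the 12, 8 were at least 2-fold higher, while 1.17% of all genes were called higher by that much. All 4 Nestin-Pex5-/- arrays lay above all 4 wild type arrays for 15 members, the 12 called ones together with Ccl8, Cxcl11 and Cxcr6, and that order held for 6.63% of all genes. For each of these 15, the exact two-sided permutation p was 0.0286, the smallest that the 70 ways of splitting the 8 arrays allow. The 33 members that were not called had log2 fold changes between -0.50 and 0.65.

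**Figure D1:**
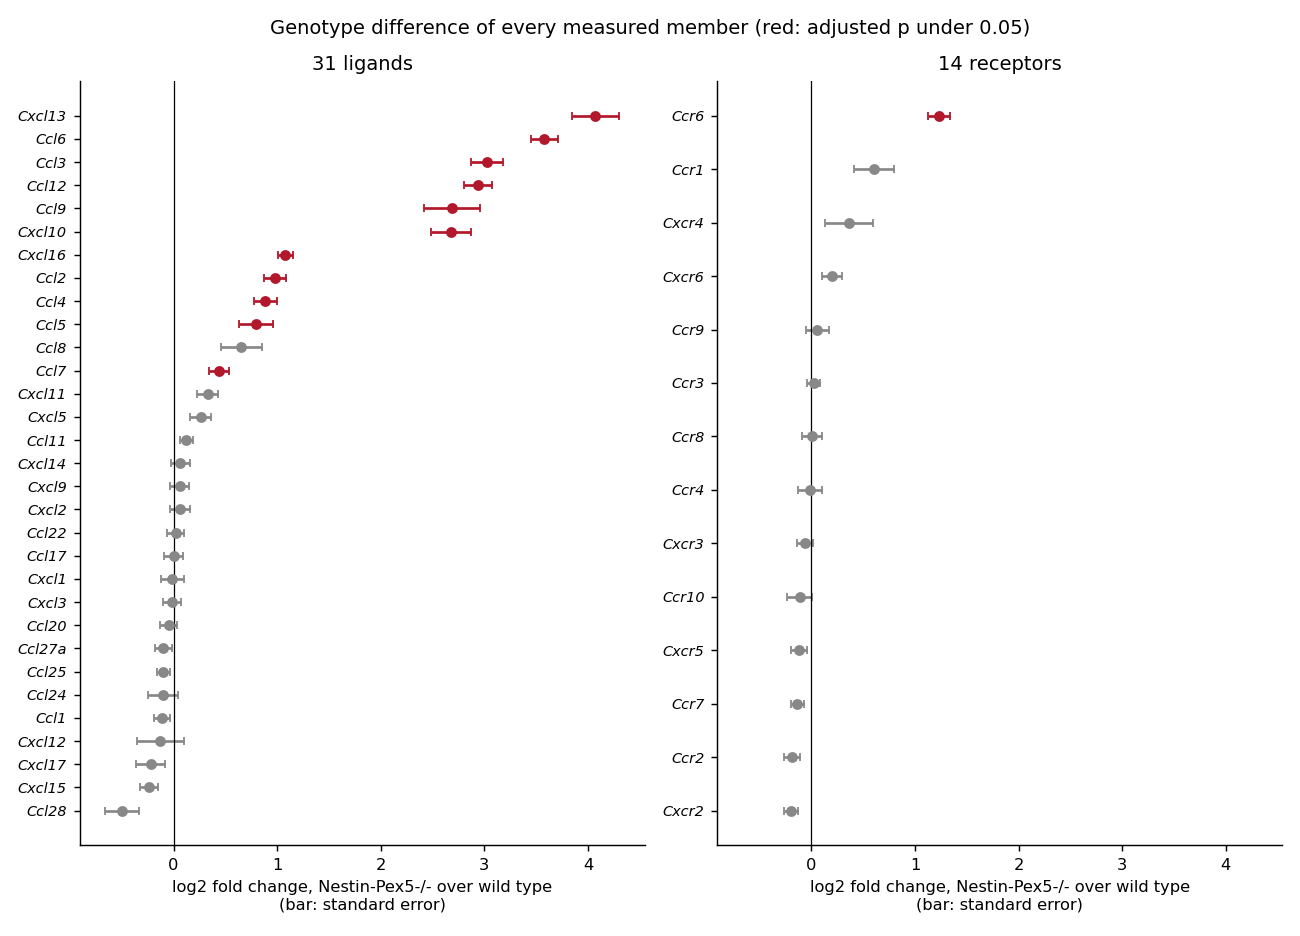
Log2 fold change (Nestin-Pex5-/- over wild type, x axis) of the 31 ligands (left) and 14 receptors (right), 1 probe set per gene, with bars for the standard error (n = 4 arrays per genotype). Red points passed an adjusted p of 0.05: 11 ligands from 0.44 to 4.07 and 1 receptor at 1.23, while the grey members lay between -0.50 and 0.65.

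Among the CXC ligands, Cxcl13, Cxcl10 and Cxcl16 were up regulated. Cxcl13 attracts B cells and some T cells through Cxcr5 and organises lymphoid follicles. On the log2 scale it read 6.22, 6.51, 6.98 and 7.18 in wild type and 10.66, 10.99, 10.37 and 11.16 in Nestin-Pex5-/- mice. The genotypes lay more than 3 log2 units apart at their closest arrays, with a mean of 6.72 ± 0.44 (SD, n = 4) against 10.79 ± 0.35. The log2 fold change was 4.07 (SE 0.23, adjusted p = 5.06e-06), or 16.8-fold, and only 1 of all 18194 genes had a larger one.

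Cxcl10, an interferon-inducible ligand of Cxcr3 that recruits activated T cells and NK cells, read 5.52, 5.06, 5.29 and 5.58 in wild type and 7.60, 8.39, 7.79 and 8.37 in Nestin-Pex5-/- mice. Every Nestin-Pex5-/- array lay above every wild type array, and the level was 6.39-fold higher (log2 fold change 2.68, SE 0.19, adjusted p = 2.47e-05). Cxcl16 is a transmembrane chemokine that also acts as a scavenger receptor for oxidised lipid, and its shed form binds Cxcr6. It read 7.66, 7.98, 7.81 and 7.79 in wild type and 8.89, 8.83, 8.97 and 8.87 in Nestin-Pex5-/- mice. The Nestin-Pex5-/- arrays were nearly level with each other (SD 0.06), and the log2 fold change was 1.08 (SE 0.07, adjusted p = 1.93e-05).

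The promoters of Cxcl10 and Cxcl13 are shown along the gene's strand (RefSeq, build GRCm38.p6, 250 bases before to 50 bases after the annotated start). They are shown because both ligands were among the largest changes and their windows hold letters matching motifs of inflammatory transcription factors. Capitals mark the interferon response motif (GAAA, any 2 bases, GAAA; Cxcl10 alone) and the kappa B motif (GGGA, any 4 bases, CC). The Cxcl10 window is chr5:92348840-92349139 on the minus strand and the Cxcl13 window is chr5:95956689-95956988 on the plus strand.
Cxcl10: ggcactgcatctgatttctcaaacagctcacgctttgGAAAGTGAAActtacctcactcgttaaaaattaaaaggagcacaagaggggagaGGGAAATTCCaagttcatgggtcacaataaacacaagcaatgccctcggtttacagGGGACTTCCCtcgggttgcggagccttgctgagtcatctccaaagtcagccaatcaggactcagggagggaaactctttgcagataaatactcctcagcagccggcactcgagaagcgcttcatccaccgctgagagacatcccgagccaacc
Cxcl13: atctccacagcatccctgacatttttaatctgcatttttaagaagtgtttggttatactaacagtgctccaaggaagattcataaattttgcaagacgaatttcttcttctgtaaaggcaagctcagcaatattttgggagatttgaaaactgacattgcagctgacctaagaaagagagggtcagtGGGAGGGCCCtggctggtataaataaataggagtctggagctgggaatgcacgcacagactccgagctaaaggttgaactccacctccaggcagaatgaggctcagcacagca
In Cxcl10 the interferon response letters lie at -213 to -204 relative to the annotated start, with kappa B letters at -159 to -150 and at -103 to -94. In Cxcl13 the kappa B letters lie at -63 to -54. The kappa B letters stood in 3 of the 8 promoters of called members and in 17 of all 36 member promoters.

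The CC ligands with the largest changes were Ccl6, Ccl3, Ccl12 and Ccl9. Ccl6 and Ccl9 are rodent chemokines of macrophages and other myeloid cells that bind Ccr1. Ccl6 read 5.77, 6.08, 5.51 and 5.97 in wild type and 9.16, 9.48, 9.43 and 9.57 in Nestin-Pex5-/- mice. The genotypes were far apart and the arrays within each were close, giving a log2 fold change of 3.58 (SE 0.13, adjusted p = 4.09e-07), or 11.9-fold. Ccl9 read 5.81, 5.62, 5.33 and 5.74 in wild type and 7.42, 8.32, 8.66 and 8.85 in Nestin-Pex5-/- mice. All Nestin-Pex5-/- arrays lay above wild type, but replicate 7 was lower than the other 3 (SD 0.63), and the log2 fold change was 2.69 (SE 0.27, adjusted p = 0.000268).

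The promoters of Ccl6 (chr11:83593038-83593337, minus strand) and Ccl9 (chr11:83578587-83578886, minus strand) are printed from the same RefSeq table because the 2 genes are neighbours that rose together and share a stretch of sequence. Capitals mark this stretch.
Ccl6: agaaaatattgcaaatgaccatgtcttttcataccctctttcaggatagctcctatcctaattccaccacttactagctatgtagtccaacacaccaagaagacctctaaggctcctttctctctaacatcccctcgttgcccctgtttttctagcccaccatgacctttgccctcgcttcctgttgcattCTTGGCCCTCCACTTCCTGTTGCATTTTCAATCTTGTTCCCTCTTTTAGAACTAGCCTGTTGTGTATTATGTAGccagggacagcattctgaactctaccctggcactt
Ccl9: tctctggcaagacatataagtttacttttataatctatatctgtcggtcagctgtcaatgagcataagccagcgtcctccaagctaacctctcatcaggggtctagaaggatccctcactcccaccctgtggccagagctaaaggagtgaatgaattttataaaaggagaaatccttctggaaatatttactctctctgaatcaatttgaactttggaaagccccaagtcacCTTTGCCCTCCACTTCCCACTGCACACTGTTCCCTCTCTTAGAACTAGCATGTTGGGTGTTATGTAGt
The best local alignment of the windows had 74 columns, of which 59 (79.7%) were identical. It covered 74 bases of Ccl6 and 67 bases of Ccl9, and lay around the annotated start of Ccl6 (-59 to 14) and further into the transcript of Ccl9 (-18 to 48).

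Ccl3 and Ccl4, macrophage inflammatory proteins that attract monocytes and T cells, are neighbours of Ccl6 and Ccl9. Ccl3 read 4.43, 4.42, 4.46 and 4.47 in wild type, values that differed by less than 0.05, and 7.43, 8.0, 7.22 and 7.22 in Nestin-Pex5-/- mice. The groups were well separated, with Nestin-Pex5-/- 8 highest, and the log2 fold change was 3.02 (SE 0.15, adjusted p = 2.5e-06), or 8.13-fold. Ccl4 read 6.48, 6.92, 6.53 and 6.90 in wild type and 7.43, 7.62, 7.68 and 7.64 in Nestin-Pex5-/- mice. The genotypes did not overlap, although their closest arrays were about 0.5 apart, and the log2 fold change was 0.89 (SE 0.11, adjusted p = 0.00134). Ccl5, which attracts T cells, monocytes and eosinophils, read 5.72, 5.80, 5.80 and 6.05 in wild type and 6.26, 6.53, 6.62 and 7.14 in Nestin-Pex5-/- mice. There was no overlap, Nestin-Pex5-/- 10 was highest, and the log2 fold change was 0.80 (SE 0.16, adjusted p = 0.0209). The call for Ccl5 was lost when wild type 1, 2 or 3 or Nestin-Pex5-/- 8 or 9 was left out, with adjusted p-values of 0.0685, 0.0661, 0.059, 0.0509 and 0.0599.

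Ccl2, Ccl7 and Ccl12 are monocyte chemoattractants that bind Ccr2. Ccl12 read 5.17, 4.96, 5.14 and 5.25 in wild type and 7.77, 7.98, 8.04 and 8.49 in Nestin-Pex5-/- mice, a log2 fold change of 2.94 (SE 0.14, adjusted p = 1.54e-06) or 7.67-fold. Ccl2 read 5.12, 5.17, 5.24 and 5.26 in wild type and 5.88, 6.14, 6.28 and 6.40 in Nestin-Pex5-/- mice (log2 fold change 0.98, SE 0.10, adjusted p = 0.000409). Both genes were separated between the genotypes, Ccl12 by more than 2 log2 units. Ccl7 read 5.11, 5.12, 5.30 and 5.44 in wild type and 5.53, 5.79, 5.61 and 5.81 in Nestin-Pex5-/- mice, with the closest arrays of the genotypes less than 0.1 apart. Its log2 fold change was 0.44 (SE 0.09, adjusted p = 0.0278). This call was lost when arrays were scaled to Actb (adjusted p = 0.0622) and when wild type 1, 2 or 3 or Nestin-Pex5-/- 8, 9 or 10 was left out, with adjusted p-values of 0.0844, 0.0909, 0.0548, 0.0929, 0.0587 and 0.0949. The arrays measured whole tissue, so that more cells of a type and more RNA per cell cannot be told apart for any of these ligands.

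**Figure D2:**
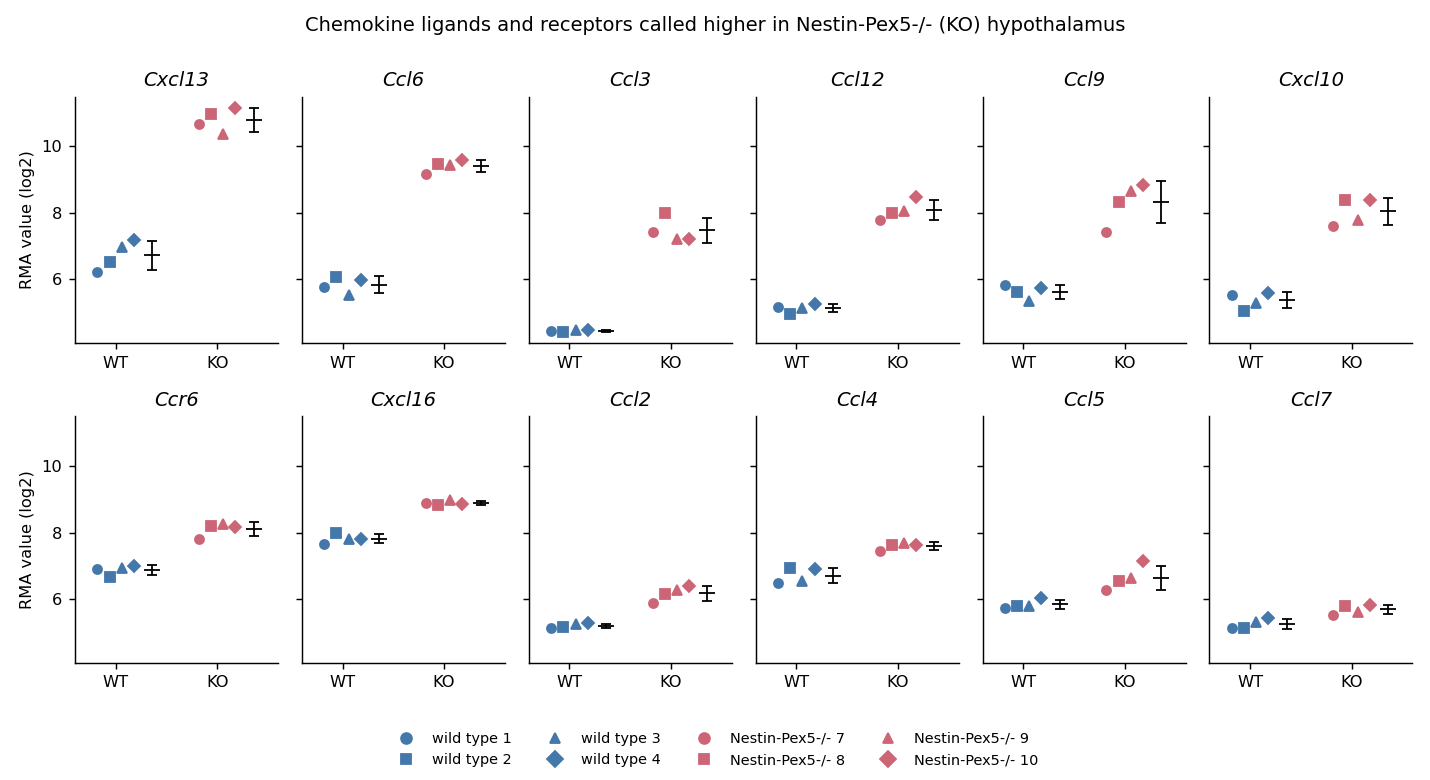
RMA level (log2, y axis) of the 12 members called higher on each of the 4 wild type (WT, blue) and 4 Nestin-Pex5-/- (KO, red) arrays, with the mean and SD of each genotype in black; marker shapes name the replicate. In every panel the red points lie above the blue ones, by more than 3 log2 units for Cxcl13 and Ccl6 and by less than 0.1 at the closest arrays for Ccl7.

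Of the called ligands, 4 have a second probe set, and all 4 second probe sets were also higher in a fit over all single-gene probe sets, in which 3.47% were called in either direction. The sizes differed between the probe sets of a gene. For Cxcl13, the dimmer set read 4.71, 4.68, 5.92 and 4.58 in wild type and 11.81, 12.11, 11.71 and 12.22 in Nestin-Pex5-/- mice, a log2 fold change of 6.99 (SE 0.28, adjusted p = 9.71e-07) against 4.07 for the brighter one. Wild type 3 was more than 1 log2 unit above the other wild type arrays in this probe set, but not in the brighter one. For Cxcl16, the dimmer probe set gave a log2 fold change of 2.59 (SE 0.10, adjusted p = 8.91e-07) against 1.08. For Ccl6 the order was the other way, with 2.17 (SE 0.17, adjusted p = 7.81e-05) against 3.58, and for Ccl9 both sets gave nearly the same value, 2.74 and 2.69. The second sets of Cxcl16 and Ccl6 end in _s_at, which marks probes that can also bind related transcripts.

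**Figure D3:**
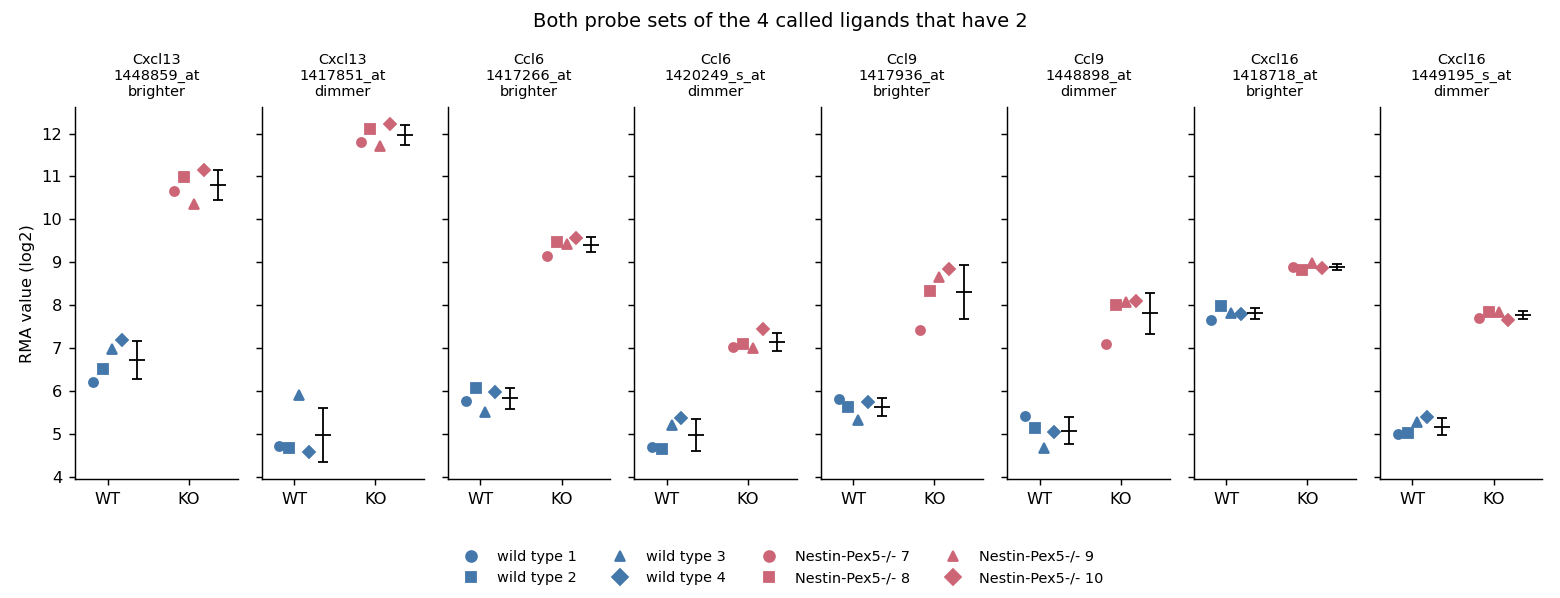
RMA level (log2, y axis) on each array for both probe sets of Cxcl13, Ccl6, Ccl9 and Cxcl16, the called ligands with 2 probe sets; blue is wild type (WT), red Nestin-Pex5-/- (KO), black the mean and SD of 4 arrays, and "brighter" and "dimmer" refer to the mean over the 8 arrays. All 8 panels show the Nestin-Pex5-/- arrays above wild type, with a gap in means from 1.08 (brighter set of Cxcl16) to 6.99 (dimmer set of Cxcl13).

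Ligands that did not pass the threshold included close relatives of those that did. Ccl8 read 5.71, 5.34, 5.92 and 6.0 in wild type and 6.13, 6.01, 6.78 and 6.66 in Nestin-Pex5-/- mice (log2 fold change 0.65, SE 0.20, adjusted p = 0.118). The genotypes just failed to overlap, and Nestin-Pex5-/- 9 and 10 were higher than 7 and 8. Cxcl11, another Cxcr3 ligand that the GRCm38.p6 annotation lists as a transcribed pseudogene, had a log2 fold change of 0.33 (adjusted p = 0.115), which passed without wild type 4 (0.41, adjusted p = 0.0229) and with its probe sets averaged (0.28, adjusted p = 0.0418). Cxcl9, the remaining Cxcr3 ligand, read 4.71 to 5.06 in wild type and 4.87 to 5.12 in Nestin-Pex5-/- mice (adjusted p = 0.78). The eosinophil chemoattractants Ccl11 and Ccl24 had log2 fold changes of 0.12 (adjusted p = 0.385) and -0.10 (adjusted p = 0.758), and the sign of each turned under another setting. None of the 4 Cxcr2 ligands Cxcl1, Cxcl2, Cxcl3 and Cxcl5, which attract neutrophils, was called by limma (median log2 fold change 0.02, 1 of 4 at an unadjusted p under 0.05). Cxcl1 was read by an _x_at probe set (-0.01), and its dimmer set without that suffix gave 0.49 (adjusted p = 0.192). Cxcl14, a ligand found in many healthy tissues, had 0.07 (adjusted p = 0.764) and Ccl27a, a skin chemokine read here by an _x_at probe set, -0.10 (adjusted p = 0.583).

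Ccl28, a mucosal chemokine, had the lowest log2 fold change of the family and was singled out after its values were seen. It read 6.63, 7.56, 6.99 and 7.04 in wild type and 6.52, 6.68, 6.54 and 6.49 in Nestin-Pex5-/- mice. The Nestin-Pex5-/- arrays were close together, and wild type 1 fell among them. The log2 fold change was -0.50 (SE 0.16, adjusted p = 0.144), and it passed as lower without wild type 1 (-0.64, adjusted p = 0.0385) and with arrays scaled to Actb (-0.62, adjusted p = 0.0337). In the limma fit over probe sets, the dimmer sets of Ccl28 gave -0.12 (adjusted p = 0.504) and -0.31 (adjusted p = 0.165). The scaling to Actb moved the median of all genes to -0.16, and with it Cxcl15 (-0.36, adjusted p = 0.0463) and Cxcr2 (-0.33, adjusted p = 0.0221) also passed as lower.

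Cxcl12, which guides neural progenitors and retains leukocytes at vessels and meninges, read 8.69, 8.86, 8.69 and 8.90 in wild type and 7.96, 8.50, 9.15 and 9.02 in Nestin-Pex5-/- mice. Nestin-Pex5-/- 7 and 8 lay below all wild type arrays and 9 and 10 above them, so that the means hardly differed (-0.13, SE 0.23, adjusted p = 0.815) although the SD was 0.54 against 0.11. Another probe set of Cxcl12 did not split these arrays in that way, with 8.37, 8.47, 8.23 and 8.60 in Nestin-Pex5-/- mice against 8.63, 8.74, 8.43 and 8.74 in wild type. The third had a log2 fold change of -0.20 (adjusted p = 0.373). In a list of 8 genes of meningeal fibroblasts, Nestin-Pex5-/- 7 and 8 also lay below all wild type arrays, whereas 9 and 10 lay within the wild type range. The mean log2 level of the list was 7.36 and 7.57 in Nestin-Pex5-/- 7 and 8, 8.66 and 8.60 in 9 and 10, and 8.17 to 8.79 in wild type. Of these 8 genes limma called 0 (1 lower at an unadjusted p under 0.05). The part of meninges in the Cxcl12 values was not tested.

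**Figure D4:**
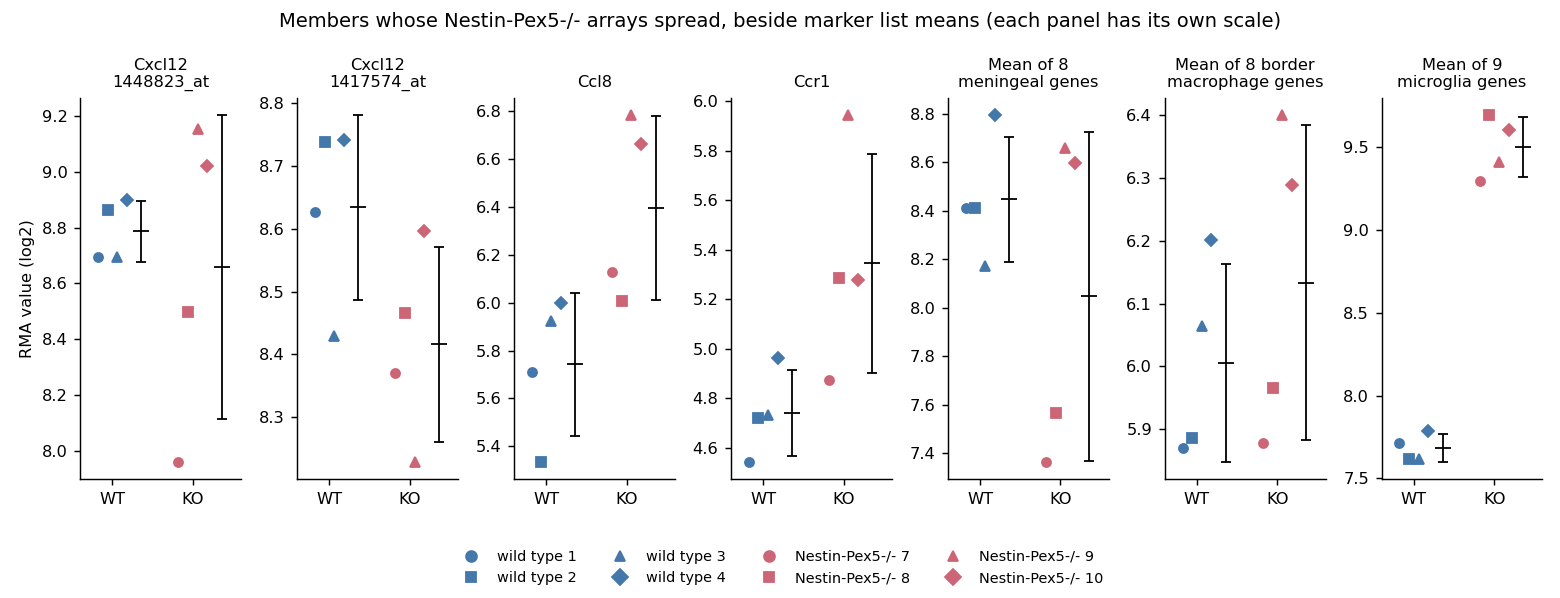
RMA level (log2, y axis, own scale in each panel) on each array for 2 probe sets of Cxcl12, for Ccl8 and Ccr1, and for the mean level of the meningeal, border macrophage and microglia gene lists (8, 8 and 9 genes); blue is wild type (WT), red Nestin-Pex5-/- (KO), black the mean and SD of 4 arrays. Nestin-Pex5-/- 7 and 8 lie below 9 and 10 for the first Cxcl12 probe set and the meningeal and border macrophage lists, whereas the microglia list separates the genotypes (7.62 to 7.79 against 9.30 to 9.69).

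Among the 14 receptors, Ccr6 alone was up regulated. Ccr6, the receptor of Ccl20 on B cells, dendritic cells and subsets of T cells, read 6.89, 6.68, 6.94 and 7.0 in wild type and 7.80, 8.20, 8.25 and 8.18 in Nestin-Pex5-/- mice. All Nestin-Pex5-/- arrays were higher than wild type, with replicate 7 below the other 3. The log2 fold change was 1.23 (SE 0.11, adjusted p = 0.000117), or 2.35-fold. Ccl20 read 4.61, 4.87, 4.61 and 4.84 in wild type and 4.59, 4.67, 4.70 and 4.79 in Nestin-Pex5-/- mice (adjusted p = 0.811), with full overlap.

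Ccr1, a receptor of monocytes, macrophages and microglia, read 4.54, 4.72, 4.73 and 4.96 in wild type and 4.87, 5.28, 5.94 and 5.28 in Nestin-Pex5-/- mice. Nestin-Pex5-/- 7 fell within the wild type range, and the log2 fold change of 0.60 (SE 0.19) had an adjusted p of 0.14. Without that array it was 0.76 with an adjusted p of 0.042. The other probe set of Ccr1 was dim and gave 0.08 (adjusted p = 0.657). Ccr2, which brings monocytes out of the bone marrow and into inflamed tissue, read 7.19, 7.34, 7.23 and 7.47 in wild type and 7.22, 7.08, 7.18 and 7.02 in Nestin-Pex5-/- mice (log2 fold change -0.18, SE 0.08, adjusted p = 0.267). The genotypes overlapped, and its 3 dimmer probe sets gave 0.13, -0.06 and 0.17, none of them called.

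Cxcr3, the receptor of Cxcl9, Cxcl10 and Cxcl11 on activated T cells, read 4.76, 4.75, 4.77 and 5.02 in wild type and 4.83, 4.67, 4.72 and 4.82 in Nestin-Pex5-/- mice (adjusted p = 0.72). Cxcr5, the receptor of Cxcl13, read 4.33, 4.29, 4.23 and 4.45 in wild type and 4.23, 4.36, 4.08 and 4.17 in Nestin-Pex5-/- mice (adjusted p = 0.462). In both the arrays of the genotypes overlapped. Cxcr6, the receptor of Cxcl16, read 4.47, 4.66, 4.59 and 4.56 in wild type and 4.66, 4.70, 5.06 and 4.66 in Nestin-Pex5-/- mice. In this probe set the genotypes differed by less than 0.01 at their closest arrays, with only Nestin-Pex5-/- 9 clearly higher. The log2 fold change of 0.20 had an adjusted p of 0.328. The other Cxcr6 probe set was very dim, with 3.19, 3.23, 3.21 and 3.28 in wild type. It read 3.39, 3.37, 3.48 and 3.48 in Nestin-Pex5-/- mice, without overlap. In the limma fit over probe sets it gave 0.20 (adjusted p = 0.106). Ccr3, the receptor of eosinophils, had a log2 fold change of 0.02 (adjusted p = 0.882), and the remaining 7 receptors, not named by the rule for single genes, lay between -0.20 and 0.36. At the lower end Cxcr2, the receptor of neutrophils, was the 1 member whose Nestin-Pex5-/- arrays all lay below wild type. It read 4.86, 4.96, 5.03 and 4.99 in wild type and 4.64, 4.75, 4.80 and 4.85 in Nestin-Pex5-/- mice (adjusted p = 0.149). That order held for 820 of all 18194 genes.

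The receptors were set side by side with their ligands. The pairs were 32, and they joined 14 receptors, the atypical receptor Ackr3 included, to their known mouse ligands. In 13 pairs the ligand was higher, in 1 pair (Ccr6 with Ccl20) the receptor was higher, and in 0 pairs were both. At least 1 ligand was higher for 6 receptors: Ccr1 (Ccl3, Ccl5, Ccl6, Ccl7 and Ccl9), Ccr2 (Ccl2, Ccl7 and Ccl12), Ccr3 (Ccl5 and Ccl7), Cxcr3 (Cxcl10), Cxcr5 (Cxcl13) and Cxcr6 (Cxcl16). None of these 6 receptors was called by limma. At an unadjusted p under 0.05 Ccr1 was higher and Ccr2 lower. Ackr3, which takes up Cxcl11 and Cxcl12 without G protein signalling, read 8.16, 8.08, 7.99 and 8.17 in wild type and 7.70, 7.81, 7.72 and 7.65 in Nestin-Pex5-/- mice. It was lower in every Nestin-Pex5-/- array (log2 fold change -0.38, SE 0.06, adjusted p = 0.00673), and it was read by an _s_at probe set. How much of a dim reading is background is unknown here, so that a receptor that was not called may still have changed.

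**Figure D5:**
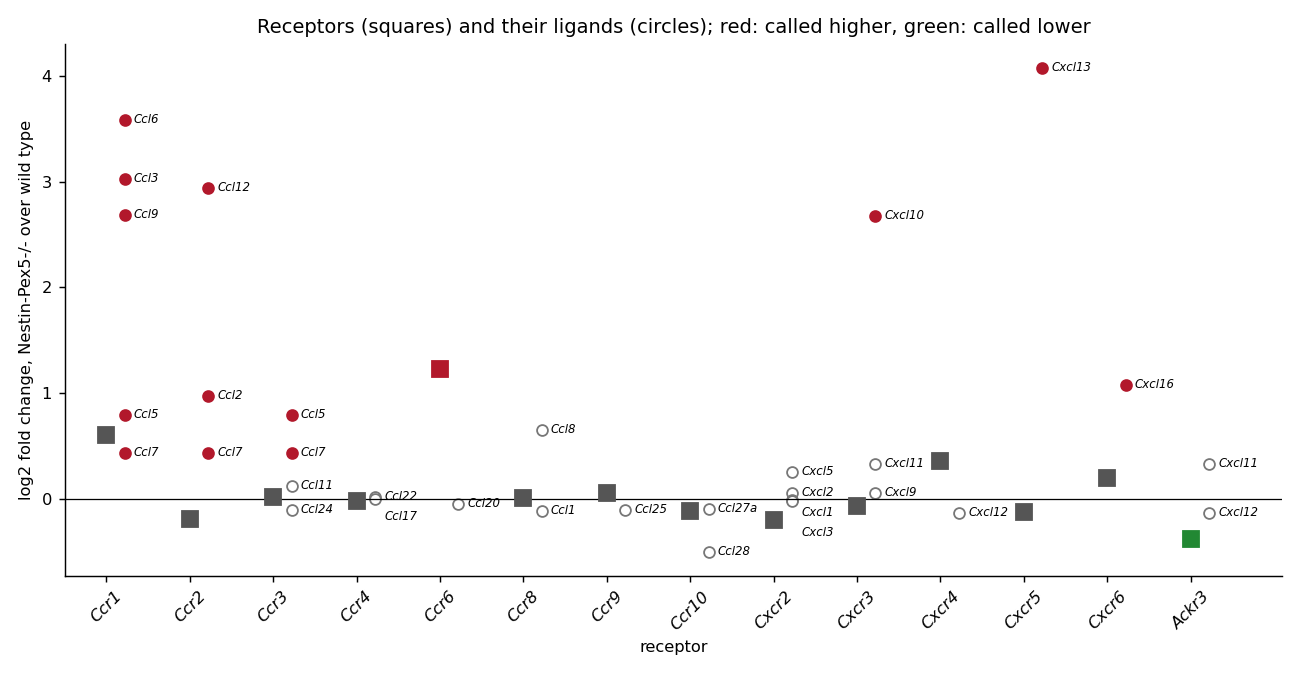
Log2 fold change (Nestin-Pex5-/- over wild type, y axis) of 14 receptors (squares) and of the ligands paired with each (circles, to the right of the receptor); red was called higher, green lower, dark grey squares and open circles neither. Above Ccr1, Ccr2, Ccr3, Cxcr3, Cxcr5 and Cxcr6 stand red ligands over grey receptors, Ccr6 is the only red square and its ligand Ccl20 is open.

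Within the Nestin-Pex5-/- group, replicate 7 had the lowest level of the 4 for 9 of the 12 called members and the highest for 0. Replicate 10 was highest for 7 of 12. The gap between replicate 7 and the others was widest for Ccl9. The lowest array was replicate 9 for Cxcl13, replicate 8 for Cxcl16 and replicate 10 for Ccl3. The mean of the microglia list was also lowest in replicate 7 (9.30, against 9.41 to 9.69).

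The order of genes in the GRCm38.p6 annotation puts 8 of the 11 called ligands in 2 runs on chromosome 11. In the first, Ccl2, Ccl7, Ccl11, Ccl12, Ccl8 and Ccl1 follow each other without another protein-coding gene between them, and 3 of these 6 were higher (Ccl2, Ccl7 and Ccl12). After 25 other protein-coding genes come Ccl5, Ccl9, Ccl6, Ccl3 and Ccl4, and all 5 were higher, with a median log2 fold change of 2.69. Over all genes 3.98% were called higher, and of the CC ligands 8 of 18. The calls of Ccl5 and Ccl7 were lost under the settings given above. On chromosome 5, Cxcl5, Cxcl3, Cxcl15, Cxcl1 and Cxcl2 lie close together, and limma called 0 of the 5 (median log2 fold change -0.01, with Cxcl5 higher and Cxcl15 lower when p was not adjusted). Cxcl9, Cxcl10 and Cxcl11 follow further along that chromosome with 1 other protein-coding gene among them, and of these neighbours Cxcl10 was called. The receptors Ccr9, Cxcr6, Ccr1, Ccr3 and Ccr2 lie near each other on chromosome 9 and had log2 fold changes between -0.18 and 0.60.

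Promoter sequences were in the RefSeq table for 32 of the 45 members (36 promoters), 7 of the 12 called ones among them. Motifs were searched on both strands in the 300-base windows, and a match describes letters, not a binding site. The interferon response letters stood in 3.44% of all 32851 promoters and in 2 of the 36 member promoters, those of Cxcl10 and Cxcl14. The kappa B letters stood in 20.7% of all promoters and in 17 of 36 member promoters (47.2%). Of the 8 promoters of called members 3 held them (Cxcl10, Cxcl13 and Ccr6). Of the members that were not called, Cxcl1, Cxcl2, Cxcl3, Cxcl9 and Ccl20 held them, among others. The PU.1 letters GAGGAA, which belong to a factor of myeloid cells, stood in 28.3% of all promoters and in 13 of 36 member promoters (36.1%). Among the 8 promoters of called members 3 held them (Ccl3, Ccl12 and Ccr6). In the windows of Ccl27a and Ccr3 a PU.1 match overlapped a kappa B match.

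Of 65 other genes of chemokine signalling, 60 were measured, and 16 were higher and 2 lower in Nestin-Pex5-/- mice (median log2 fold change 0.14). Over all genes 3.98% were higher and 0.791% lower. The list holds ligands and receptors outside the CC and CXC symbols, G protein signalling, desensitisation, the machinery of cell migration, inducing factors and proteases that cut chemokines. Cx3cr1, the fractalkine receptor of microglia, read 8.90, 8.69, 8.80 and 9.03 in wild type and 10.32, 10.64, 10.57 and 10.74 in Nestin-Pex5-/- mice (log2 fold change 1.71, adjusted p = 6.68e-06), with no overlap. Its ligand Cx3cl1, which neurons make, had a log2 fold change of -0.19 (adjusted p = 0.135). The cysteine protease Ctss, able to shed Cx3cl1, had the largest change of the list (1.95, adjusted p = 2.15e-06). The phosphoinositide kinase subunits that chemokine receptors engage through G proteins rose, with 1.06 for the catalytic subunit Pik3cg (adjusted p = 0.000391) and 1.16 for the adaptor Pik3r5 (adjusted p = 0.00434). The leukocyte GTPase Rac2 (1.68, adjusted p = 5.1e-05) and the actin regulator Was (1.05, adjusted p = 0.00297) of the migration machinery were higher as well. The second, dim probe set of Rac2 gave 0.004 (adjusted p = 0.99), and the mean of both sets 0.84 (adjusted p = 0.000986). On the other side stood Ackr3 and Rarres2, the precursor of the leukocyte attractant chemerin (-0.46, adjusted p = 0.0175). Rarres2 was read by an _s_at probe set. In the fit over probe sets another _s_at set gave -0.58 (adjusted p = 0.0108), while the dim set without that suffix gave -0.08 (adjusted p = 0.647). Without _s_at and _x_at sets 0 of the pathway genes were lower, as Ackr3 was then not tested and Rarres2 was not called.

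Markers of cell types that make chemokines or carry their receptors were read on the same arrays. Of 9 measured genes of microglia and macrophages, 8 were higher (median log2 fold change 1.83), among them Cd68 (2.58) and Aif1 (2.23), whereas P2ry12 was not called (0.45, adjusted p = 0.0554). The mean level of that list was 7.62 to 7.79 in wild type and 9.30 to 9.69 in Nestin-Pex5-/- mice. Of 6 astrocyte genes 2 were higher, Gfap (2.76) and Aqp4 (1.11), and the mean of the list was 11.23 to 11.46 against 11.90 to 12.11. The other 4 astrocyte genes were not called and had log2 fold changes between -0.13 and 0.16. By limma, 0 of 8 genes of border macrophages, 0 of 7 of T cells, 0 of 4 of NK cells and 0 of 7 of endothelium were called, and none of them reached an unadjusted p under 0.05. Of 5 B cell genes 0 were called (1 higher at an unadjusted p under 0.05). The mean level ranged from 5.42 to 5.65 in wild type and from 5.31 to 5.52 in Nestin-Pex5-/- mice for the T cell list, and from 5.13 to 5.28 and from 5.10 to 5.46 for the B cell list. For the border macrophage list it ranged from 5.87 to 6.20 and from 5.88 to 6.40. Of 6 neutrophil genes 1 was called (Csf3r, 1.76), and of 4 monocyte genes 1 (S100a4, 1.51). The other 5 neutrophil genes lay between -0.19 and 0.05, with 1 lower at an unadjusted p under 0.05. The other 3 monocyte genes lay between -0.15 and 0.05. The part of these cell types in the chemokine values was not tested.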

How the data were processed

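The authors made the deposited log2 values with RMA, named in the labels without a version. The bioinformatics is described elsewhere, and probe set definitions and filters are not given in the sources used here. All 8 arrays were used and no further normalization was applied. Their sorted values differed from the mean by at most 0.12, and correlations between arrays ranged from 0.983 to 0.998. No reading of signal over background was used, and the 4 arrays per genotype limit the precision. Nothing states that mice of a genotype came from separate litters, so p-values measure the spread between these samples.

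The platform annotation names 1 gene for 34958 of 45101 probe sets, several genes for 932 and none for 9211. Only the first were used (34754 had their symbol brought up to date by gene identifier), so Ccl19 and Ccl21a, whose probe sets are shared by several genes, are not members. The brightest probe set stood for a gene. The comparison used lmFit and eBayes of limma 3.58.1 (R 4.3.3, two-sided) over 18194 genes, with Benjamini-Hochberg adjustment and a threshold of 0.05, and tested on simulated data. Single members were also compared by an exact permutation test over 70 assignments. Promoters came from RefSeq (GRCm38.p6), aligned with Biopython 1.88. Plots were made in Python 3.11.15 (matplotlib 3.10.9).

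The members and lists were chosen with earlier results of these data known. Named were all members past the threshold, the ligands and receptors paired with them, the 5 brightest, those with a log2 fold change of at least 0.5 in size, the 6 pathway genes with the largest called change, and Pex5. Cxcl5, Cxcl15, Cxcr2, Ccl28, Rarres2, Ackr3 and Cx3cl1 were added after their values were seen. Listed pathway genes without a value are not reported here. Alternatives were the mean of a gene's probe sets, leaving out _s_at and _x_at sets, a filter at the median level, quantile normalization again, scaling to Actb or to reference genes (8 of 10 measured), eBayes with trend and robust settings, array weights, a threshold of 0.01, and leaving out each array in turn.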

Additional observations from a re-analysis of the deposited data

Results flagged for a closer look

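In 4 of 68 groups of 4 arrays examined (27 named members, 6 pathway genes and Pex5, both genotypes) 1 array lay far from the other 3, where chance gives about 1 in 20 groups (Dixon's test). Ccr6 read 7.80 in Nestin-Pex5-/- 7, against a mean of 8.21 in the other 3 arrays, still above every wild type array. Cxcr3 read 5.02 in wild type 4, against a mean of 4.76 in the others. Cxcr6 read 5.06 in Nestin-Pex5-/- 9, against 4.67. Rac2 read 8.73 in Nestin-Pex5-/- 8, against 8.30.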

How the results depend on the processing

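No paired analysis was possible because the genotypes share no replicate number. The number of members called higher stayed between 10 and 15 under every setting except the filter at the median level, which left 5 members to test and 2 called. Members called lower numbered 3 with scaling to Actb and 0 to 1 when an array was left out (1 without wild type 1). The calls of Ccl5 and Ccl7 were lost under settings given above and at a threshold of 0.01. The other 10 kept their call in every setting that tested them. With array weights Ccl8 (0.92), Ccr1 (0.84) and Cxcl11 (0.36) passed as higher.

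Over all genes, 724 were higher and 144 lower, against 540 and 1088 with scaling to Actb, which moved the median log2 fold change of all genes from -0.03 to -0.16. Array weights gave 1351 and 699, a threshold of 0.01 gave 467 and 20, the filter gave 416 higher, and scaling to reference genes 78 lower. Leaving out an array gave 543 to 1080 higher and 46 to 331 lower (68 without wild type 1 or 2, 331 without wild type 4, 60, 50 and 46 without Nestin-Pex5-/- 8, 9 and 10). Of the other pathway genes, 10 were higher under the filter and 27 with array weights. Lower were 0 without _s_at and _x_at probe sets, 4 with scaling to Actb, 1 at the threshold of 0.01, and 1 to 2 when an array was left out (1 without wild type 1 or 2 or Nestin-Pex5-/- 9 or 10).

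Several small differences turned sign without passing the threshold. With scaling to Actb these were Ccl11 (-0.0031), Ccr3 (-0.10), Cxcl14 (-0.060), Cxcl9 (-0.067) and Pex5 (-0.12), and with reference genes Ccl20 (0.0008). With array weights they were Ccl24 (0.085), Cxcl12 (0.11) and Pex5 (-0.0099). With probe sets averaged they were Ccr2 (0.012), Cxcl9 (-0.040) and Pex5 (-0.027), and with repeated quantile normalization Pex5 (-0.0082). Leaving out an array gave -0.20 to 0.018 for Ccl24 (turned without wild type 4), -0.087 to 0.0017 for Cxcr3 (wild type 4), -0.011 to 0.058 for Ccr3 (wild type 1 or Nestin-Pex5-/- 9), -0.29 to 0.10 for Cxcl12 (Nestin-Pex5-/- 7), -0.013 to 0.1 for Cxcl9 (wild type 2) and -0.019 to 0.039 for Pex5 (wild type 1 or Nestin-Pex5-/- 7). The cause was not tested.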
